A study of Mus musculus with 4 samples.

Results

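The miR-148 and miR-152 family comprised 6 of the 1915 mature mouse miRNAs listed in the expression table, namely both strands of 3 hairpins, and the members were taken by their miRBase names. They were mmu-miR-148a-3p, mmu-miR-148b-3p and mmu-miR-152-3p, which come from the 3′ side of the hairpins, and mmu-miR-148a-5p, mmu-miR-148b-5p and mmu-miR-152-5p, which come from the 5′ side. Small RNA of MIN6 cells, a mouse insulinoma line used as a model of the pancreatic β cell, was sequenced in 2 libraries, and small RNA of exosomes collected from the conditioned medium of the same line in another 2 libraries. Both groups carried no transgene or treatment in the labels, and the medium was DMEM with exosome-depleted fetal bovine serum and β-mercaptoethanol. The exosomes were pelleted by ultracentrifugation after filtration and ultrafiltration, so the groups differ in origin, preparation and depth together, and these cannot be told apart. No source used here says that the 2 libraries of a group came from separate cultures, so p-values measure only the spread between libraries, which may be technical.

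A miRNA guides Argonaute proteins to messenger RNAs that pair with its seed, the stretch of bases near its 5′ end, and the targets are translated less and degraded sooner. The 3p strands of this family share their seed and are the main products, and the DNA methyltransferase Dnmt1 is a well-studied target. In β cells miR-148, together with miR-24, miR-26 and miR-182, has been linked to insulin transcription through repressors of the insulin gene such as Sox6 and Bhlhe22. Exosomes are small vesicles released by cells, and their miRNAs can differ in proportion from those of the cell.

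The sequences are shown because the 3p strands are nearly identical, and the separate counts rest on a few bases. All 6 were read from the deposited hairpin tables and were identical to the RefSeq sequences for GRCm38.p6. Bases 2 to 8, the seed, are in capitals.
mmu-miR-148a-3p: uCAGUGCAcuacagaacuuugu
mmu-miR-148b-3p: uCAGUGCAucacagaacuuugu
mmu-miR-152-3p: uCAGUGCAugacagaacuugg
mmu-miR-148a-5p: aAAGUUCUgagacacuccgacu
mmu-miR-148b-5p: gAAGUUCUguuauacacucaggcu
mmu-miR-152-5p: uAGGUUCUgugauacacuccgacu

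The 3 3p strands had 1 seed in common. Counted from the 5′ end, with the base of the first-named miRNA written first, miR-148a-3p and miR-148b-3p differed by C9U and U10C over 22 bases. miR-148a-3p and miR-152-3p differed by C9U, U10G and U20G over the 21 bases they have in common. The 5p strands fell into 2 seeds, 1 held by miR-148a-5p and miR-148b-5p and 1 by miR-152-5p. Among the 1851 listed miRNAs with a sequence, no other had the seed of a member. The closest other sequence to any 3p strand differed at 8 of the first 20 bases, and none of the 6 sequences occurred in the 139565 transcripts of other kinds in the GENCODE annotation.

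The hairpins lie at separate sites of the mouse genome, given here in GRCm38, the assembly that the submitters' notes call mm10. Mir148a lies on the minus strand at chr6:51269812-51269910 and overlaps no other annotated gene, the nearest protein-coding gene being Nfe2l3, 162760 bases away. Mir148b lies on the plus strand at chr15:103285125-103285221, inside an intron of Copz1. Mir152 lies on the plus strand at chr11:96850393-96850465, inside an intron of Copz2. Copz1 and Copz2 encode the ζ subunits of the coatomer, the coat of vesicles that move between the Golgi and the endoplasmic reticulum.

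The cell libraries held 2930217 and 2564068 counts on mature miRNAs, and the exosome libraries 47447 and 31409. A floor of 3 counts therefore stood at 1.02 and 1.17 reads per 1000000 mature counts (RPM) in the cells, and at 63.2 and 95.5 RPM in the exosomes. The 2 cell libraries correlated at 0.99 across the tested miRNAs, the 2 exosome libraries at 0.80, and libraries of different groups at 0.34 to 0.48. These values are descriptions across miRNAs, which are not independent replicates. Intervals below are 95% intervals and cover counting error only.

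All 6 members were counted in both MIN6 cell libraries, and the 3p strands were far above their 5p partners. miR-148a-3p, the most abundant, had 394 and 309 counts, or 134 and 121 RPM (mean 127 ± 9.86, SD, n = 2). miR-148b-3p had 234 and 228 counts, or 79.9 and 88.9 RPM (84.4 ± 6.41, n = 2). miR-152-3p had 193 and 160 counts, or 65.9 and 62.4 RPM (64.1 ± 2.45, n = 2). The order of these strands was the same in both cell libraries. The counting intervals of miR-148a-3p began at 122 and 107 RPM and lay above those of miR-148b-3p in each library. Those of miR-148b-3p and miR-152-3p overlapped in replicate 1 (70.0 to 90.8 against 56.9 to 75.8 RPM) and not in replicate 2 (77.8 to 101 against 53.1 to 72.9 RPM).

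Among the 905 and 873 miRNAs with a count, miR-148a-3p ranked 149 and 150, miR-148b-3p 177 and 167, and miR-152-3p 185 and 186. The 6 members together took 0.0289% of the mature counts (Wilson interval 0.0270 to 0.0309%) of cell replicate 1 and 0.0280% of those of cell replicate 2 (interval 0.0260 to 0.0301%).

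The 5p strands, usually the less retained side of these hairpins, had few counts, and those of miR-148a and miR-152 were near the floor of 3 counts. miR-148b-5p had 18 and 15 counts, or 6.14 and 5.85 RPM. miR-148a-5p had 5 and 3 counts, and miR-152-5p had 3 and 2 counts. The last 2 did not differ beyond their counting intervals, which were 0.554 to 3.98 against 0.211 to 2.99 RPM in replicate 1. The 5p share of both strands was 7.14 and 6.17% for miR-148b, 1.25 and 0.962% for miR-148a, and 1.53 and 1.23% for miR-152. In replicate 1 the interval of miR-148b, 4.57 to 11.0%, lay above those of miR-148a (0.536 to 2.90%) and miR-152 (0.522 to 4.40%), while in replicate 2 it (3.78 to 9.93%) overlapped that of miR-152 (0.339 to 4.39%).

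The exosome libraries held 7 counts of the family in all, every one on a 3p strand. miR-148a-3p and miR-148b-3p each had 1 count in exosome replicate 1, or 21.1 RPM, and 0 in replicate 2. miR-152-3p had 2 and 3 counts, or 42.2 and 95.5 RPM, and was the only member counted in both exosome libraries. Its exosome values spanned its cell values, whereas the exosome values of miR-148a-3p and miR-148b-3p lay below both of theirs. In a single exosome library that gap is within counting error for miR-148b-3p, since the interval of its 1 or 0 counts reached 117 RPM in each, and for miR-148a-3p the interval overlapped that of cell replicate 2. The 5p strands had 0 counts in both, for which the floor of 3 counts stands at 63.2 and 95.5 RPM and the 95% Poisson interval ends at 77.7 and 117 RPM. Both limits are far above their levels in the cells, so no fold is given for them.

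**Figure D1:**
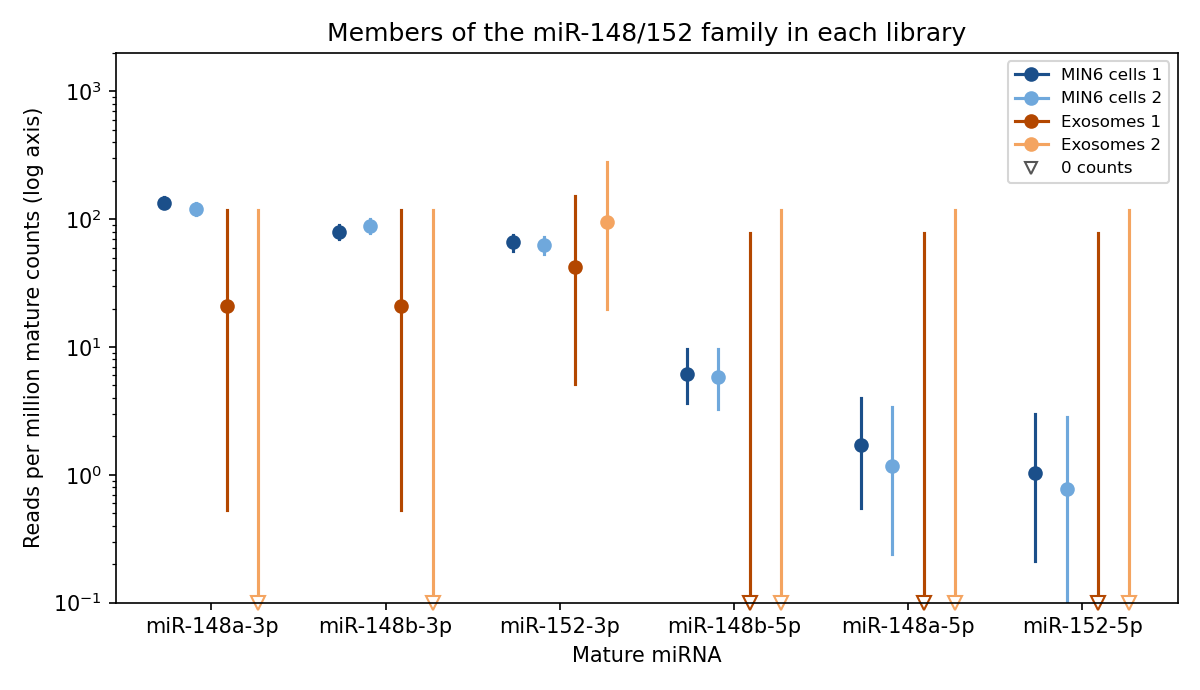
Level of each member in each library, in RPM on a log axis, with bars for the 95% Poisson interval of the count and open triangles at the lower edge for 0 counts. The exosome bars are wide because 1 count was worth 21.1 RPM in replicate 1, and for the 5p strands they cover the levels of the cells.

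Counts of miR-148a-3p and miR-148b-3p were lower in the exosomes than in the cells, and those of miR-152-3p did not pass the test. The trimmed mean of M values (TMM) was used to scale the libraries, with counts per 1000000 (CPM) on that scale. miR-148a-3p had 204 and 197 CPM in the cells against 11.8 and 0 CPM in the exosomes, which is a log2 difference of −4.68 (SE 0.74, edgeR quasi-likelihood test, adjusted p = 0.0127). miR-148b-3p had 121 and 145 CPM against 11.8 and 0 CPM, a log2 fold change of −4.08 (SE 0.78, edgeR, adjusted p = 0.0195). miR-152-3p had 99.9 and 102 CPM against 23.6 and 69.9 CPM, a log2 fold change of −1.30 (SE 0.59, edgeR, adjusted p = 0.126). Both exosome libraries were below both cell libraries on this scale for each of the 3 strands. With library size alone miR-148b-3p lost its call (edgeR adjusted p = 0.0722), and without either cell library both calls were lost (edgeR adjusted p from 0.0930 to 0.170), where the test called no miRNA at all. The log2 fold changes there were −4.66 and −4.72 for miR-148a-3p and −4.22 and −3.97 for miR-148b-3p, and unadjusted p from edgeR's exactTest ran from 0.0021 to 0.0122. miR-152-3p passed only without the filter on low counts (edgeR adjusted p = 0.0249) or without exosome replicate 2 (edgeR adjusted p = 0.0214), among the alternatives run. In the latter the 1 exosome library left is assumed to vary like the cell libraries.

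Of the 6 members, 3 passed the filter on low counts. miR-148a-3p and miR-148b-3p did so through the cell libraries alone, while miR-152-3p was above the level of the filter in the exosome libraries as well. Of the 3 that passed, 2 were called lower, beside 29.5% of the 438 tested miRNAs called lower by the same rule. None was called higher, beside 23.7%. With the threshold of the study, edgeR's exactTest with a 2-fold limit and the p left unadjusted (limit 0.05), the same 2 members were lower (p = 1.51e-06 for miR-148a-3p and p = 4.06e-05 for miR-148b-3p, edgeR exactTest), beside 37.9% of the tested miRNAs, and miR-152-3p was not (p = 0.142). Of the 129 lower calls, 48 had at most 3 counts in each exosome library, beside 137 of the 438 tested miRNAs.

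**Figure D2:**
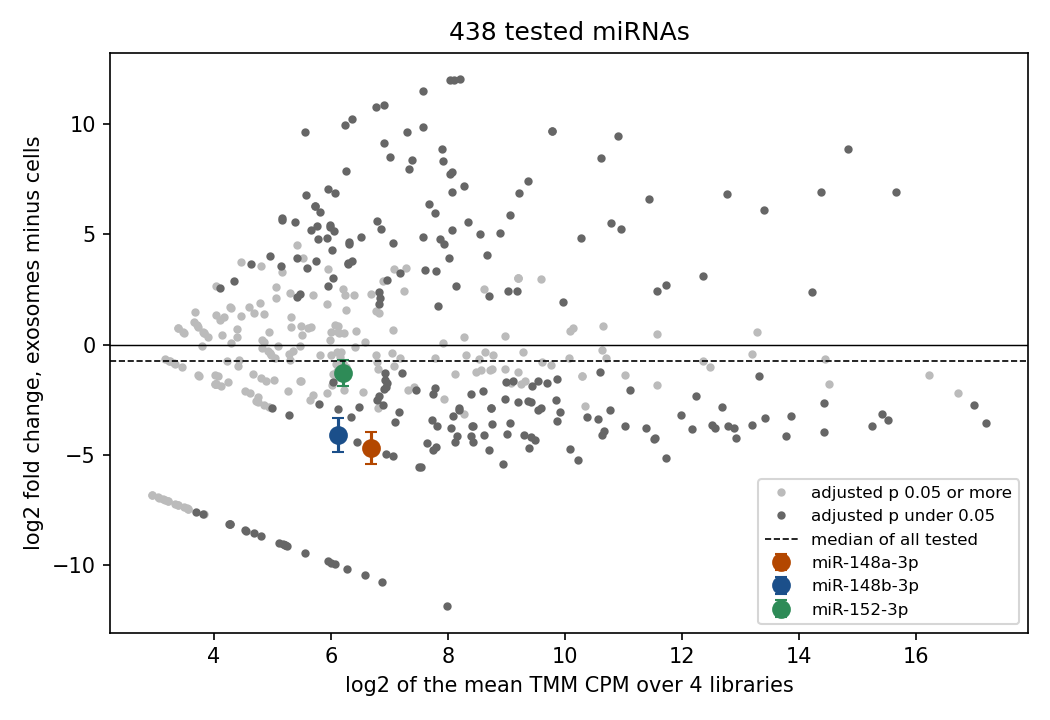
Log2 fold change (exosomes minus cells) against log2 mean TMM CPM for the 438 tested miRNAs, with the 3p strands and their standard errors in colour and the median of all tested as a dashed line at −0.75. miR-148a-3p (−4.68) and miR-148b-3p (−4.08) lie well below that median, and miR-152-3p (−1.30) lies near it.

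Because so few exosome reads were counted, the pooled counts were also set against those expected at the level of the cells. For miR-148a-3p, 25.7 exosome counts were expected with TMM scaling and 10.1 with library size alone, and 1 was observed. The exosome level was 0.0390 of the cell level (exact conditional interval 0.000986 to 0.218) with TMM scaling and 0.0991 (0.00251 to 0.554) with library size alone. For miR-148b-3p, 16.9 and 6.63 counts were expected and 1 was observed, a ratio of 0.0593 (0.00150 to 0.332) with TMM scaling and 0.151 (0.00381 to 0.844) with library size alone. Every one of these 4 intervals lay below an unchanged level, but they cover counting error only. The ratios were added after seeing the data, for strands that passed the filter through the cells alone. They are therefore a description. With the spread between libraries included, miR-148b-3p was not called with library size alone (edgeR adjusted p = 0.0722).

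miR-152-3p depended on the scaling. With TMM, 12.9 counts were expected and 5 observed, a ratio of 0.388 (0.125 to 0.914). With library size alone, 5.07 counts were expected and 5 observed, a ratio of 0.987 (0.318 to 2.32). The intervals do not include the spread between libraries, which the edgeR test does. The scaling also moved the median change over the 438 tested miRNAs, on the log2 scale, from −0.75 with TMM to 0.61 with library size alone. Relative to that median, miR-148a-3p stood at −3.93 under both scalings, miR-148b-3p at −3.34 under both, and miR-152-3p at −0.56 and −0.59. A change of scaling shifts all miRNAs by nearly the same amount, so these values agree by construction. Their agreement is no support for the fold changes.

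**Figure D3:**
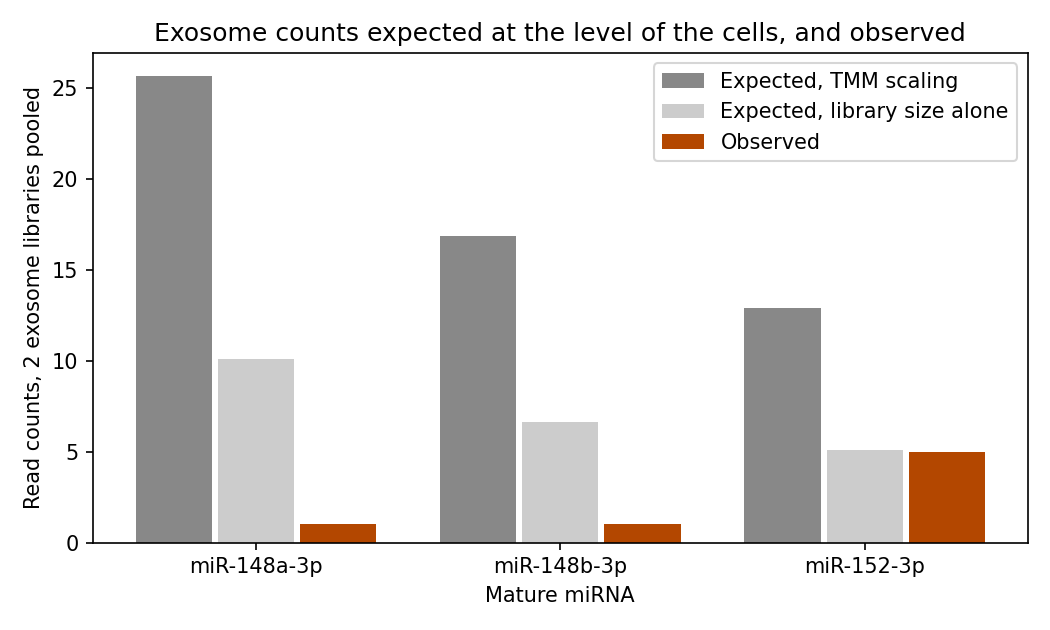
Pooled exosome read counts of the 3p strands, with the counts expected at the level of the cells under TMM scaling (dark grey) and library size alone (light grey), and the counts observed (orange). The observed 1 count of miR-148a-3p and of miR-148b-3p is below both expected values, and the observed 5 of miR-152-3p are below 12.9 and level with 5.07.

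The proportion of one 3p strand to another within a library needs no scaling between libraries. The log2 ratio of miR-152-3p to miR-148a-3p, with 0.5 added to each count, was −1.03 and −0.95 in the cells, against 0.74 and 2.81 in the exosomes. The value of exosome replicate 2 rests on 3 counts against 0 and is set by the added 0.5. The means differed by 2.76, by 2.28 with 1 added in place of 0.5, and by 1.72 to 3.79 with a library left out. The exact two-sided permutation test gave p = 0.333, which is the smallest that 2 against 2 libraries allow. Of the 3p counts, miR-152-3p made up 193 of 821 and 160 of 697 in the cells (23.5 and 23.0%), against 2 of 4 and 3 of 3 in the exosomes. The Wilson interval in exosome replicate 1 ran from 15.0 to 85.0% and included the cell shares, and that in replicate 2 began at 43.9%.

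The log2 ratio of miR-148b-3p to miR-148a-3p was −0.75 and −0.44 in the cells against 0.00 in both exosome libraries, where each pair of counts was equal (exact permutation p = 0.333). With 1 and 1 or 0 and 0 counts, no difference was detectable at this depth. The log2 ratios of 3p to 5p counts differed by −5.52, −2.98 and −3.33 (exosomes minus cells) for miR-148a, miR-148b and miR-152, but with every exosome 5p count at 0 the exosome side is set by the added 0.5 and no comparison is drawn.

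**Figure D4:**
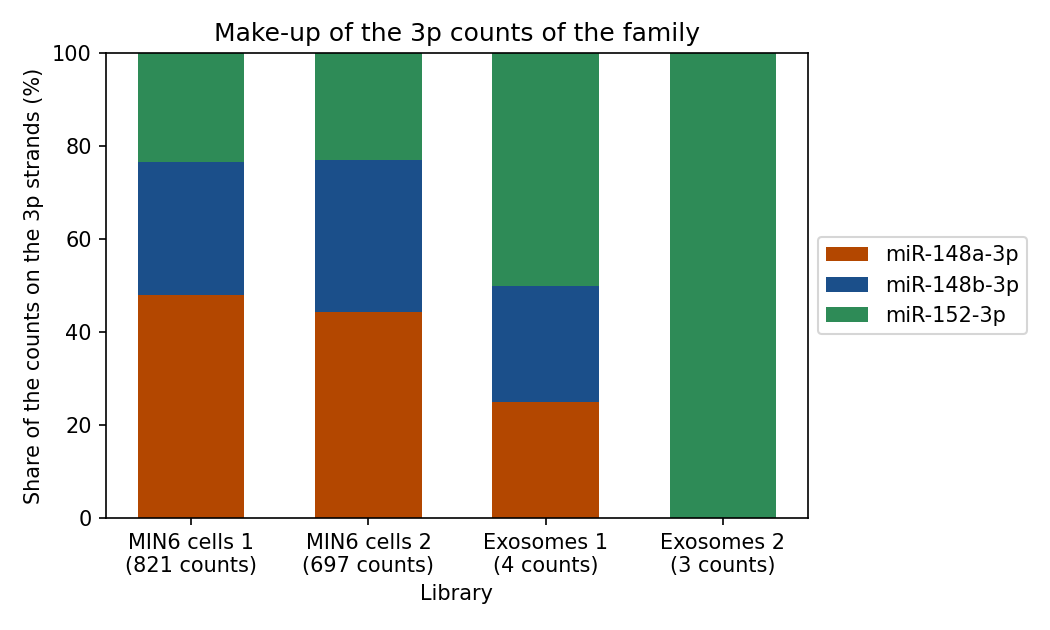
Make-up of the counts on the 3p strands in each library, in percent, with the number of counts under each bar. The cell libraries had similar shares, with miR-148a-3p at 48.0 and 44.3%, and the exosome bars rest on 4 and 3 counts.

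Reads on the hairpins outside both annotated strands were rare in the cells. For mir-148a and mir-152 there were 0 in either cell library, and for mir-148b there was 1 of 253 and 1 of 244. In exosome replicate 1, 3 of the 5 reads on mir-152 lay outside both strands, and in replicate 2, 0 of 3. Over all hairpins the share outside the annotated strands was 10.9 and 9.58% in the cells against 32.8 and 42.0% in the exosomes.

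Other miRNAs linked to insulin transcription, both strands of miR-24, miR-26a, miR-26b and miR-182, were compared as a list of 10. Of the 9 tested, 5 were lower in the exosomes, 0 were higher and 4 did not pass the test, beside 29.5% lower and 23.7% higher among all tested miRNAs. The median log2 fold change was −2.62, or −1.54 with low groups set at the floor of 3 pooled counts, beside −0.75 and −0.18 for all tested miRNAs and −4.08 and −2.49 for the 3 tested members. miR-148a-3p and miR-148b-3p passed the filter through the cells alone, as did the miRNAs of the list with 0 exosome counts. Such a filter favours lower values, so nothing is read from these medians and counts. miR-26b-5p had 756 and 746 RPM in the cells against 422 and 191 RPM in the exosomes (log2 fold change −2.62, SE 0.44, edgeR adjusted p = 0.0143). miR-26a-5p had 741 and 697 RPM against 527 and 605 RPM (−1.64, SE 0.40, edgeR adjusted p = 0.0315). The remaining lower calls, miR-26a-1-3p, miR-26a-2-3p and miR-26b-3p, had 0 counts in both exosome libraries. miR-24-3p, the most abundant of the list, had 5184 and 4628 RPM against 3541 and 7609 RPM and did not pass (edgeR adjusted p = 0.218), nor did miR-182-5p (edgeR adjusted p = 0.205).

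A further 9 listed miRNAs carried bases 2 to 7 of miR-148a-3p at their own bases 1 to 6, among them the miR-130 and miR-301 miRNAs, and 4 were tested. miR-301a-3p (1533 and 1106 counts in the cells, 6 and 0 in the exosomes) and miR-301b-3p (331 and 259, against 1 and 0) were lower, with edgeR adjusted p = 0.0260 and 0.0146. miR-130a-3p and miR-130b-3p did not pass, with edgeR adjusted p = 0.102 and 0.0548. miR-301b-3p was also the miRNA whose profile was nearest to that of miR-148a-3p over the 4 libraries, with a root mean square difference of 0.13 in centred log2 CPM. Next came miR-29b-1-5p at 0.15 and miR-374c-5p at 0.17. Among the 437 compared, miR-148b-3p ranked 7 at 0.31 and miR-152-3p ranked 227 at 2.45. The exosome counts were 1 and 0 for miR-148a-3p, miR-148b-3p, miR-301b-3p and miR-29b-1-5p, and 2 and 3 for miR-152-3p. The ranks of these miRNAs therefore rest on a few reads and on the prior count of 2 added before the logarithm.

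The cells carried the miRNAs listed here as β cell markers. miR-375-3p, the leading islet miRNA, stood at 9113 and 9881 RPM in the cells against 10686 and 7068 RPM in the exosomes, and on the TMM scale it was lower there (log2 fold change −1.43, edgeR adjusted p = 0.0475). Of the 4 β cell markers, 3 were called lower in the exosomes, beside 29.5% of all tested miRNAs, and miR-184-3p did not pass (edgeR adjusted p = 0.177). miR-375-5p stood at −2.87 (edgeR adjusted p = 0.0108) and miR-7a-5p at −3.94 (edgeR adjusted p = 0.0397). The 4 summed to 41113 and 40007 against 27146 and 12767 RPM. The 3 acinar markers had 0 counts in every library. Of the blood cell markers, 5 of the 5 tested were called higher in the exosomes, beside 23.7% of all tested miRNAs. These 5 had at most 4 counts in a cell library and passed the filter through the exosomes alone. Such a filter favours higher calls, so nothing is read from that count. All 6 listed blood markers, the untested miR-144-3p included, summed to 2.73 and 3.12 RPM in the cells against 7503 and 2101 RPM in the exosomes. The red cell miRNA miR-451a had 0 counts in both cell libraries and 33 and 2 in the exosomes. The liver miRNA miR-122-5p rose from 4.44 and 8.19 RPM to 1665 and 1974 RPM (edgeR adjusted p = 0.0065). The part of these RNAs in the results for the family was not tested.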

How the data were processed

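Small RNA libraries were made with a SMARTer smRNA-Seq kit and sequenced on an Illumina platform. The authors trimmed adapters, discarded reads matching ribosomal RNA and aligned the rest in turn to the genome (mm10 in the submitters' notes), miRBase and RNAcentral. The deposited read counts per mature miRNA and per hairpin are unnormalised. The deposited RPM values equal each count per 1000000 mature counts of the library. The notes name cutadapt, Bowtie, STAR, RSEM, Bowtie2 and edgeR without versions. How reads matching several miRNAs were assigned is not given in the sources used here.

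Counts were fitted with edgeR 4.0.16 in R 4.3.3 (TMM, filterByExpr with a minimum count of 10, quasi-likelihood test, Benjamini-Hochberg adjustment over 438 miRNAs of 1101 with a count, threshold 0.05). Fits were tested on simulated counts drawn from the proportions of the cells, with the same variability in both groups. These counts lack the wider spread of the exosome libraries, so they are not used as support. Intervals and permutation tests used scipy. Named miRNAs were the 6 members, miRNAs with their seed or with bases 2 to 7 of miR-148a-3p shifted by 1 position, the insulin transcription list, the 3 profiles nearest to miR-148a-3p, and cell type markers. The members and lists were chosen with earlier results of these data known. Alternatives were RLE, upper quartile, library size alone, DESeq2, other filters, a replicate block, other pseudocounts and denominators, and each library left out.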

Additional observations from a re-analysis of the deposited data

Results flagged for a closer look

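Reads on neither annotated strand of mir-152 made up 60% of its hairpin reads in exosome replicate 1 (3 of 5, Wilson interval 23.1 to 88.2%), in a column that the comparisons of the family do not use. The share was 0 of 196 and 0 of 162 in the cells and 0 of 3 in exosome replicate 2. Over all hairpins the share was 32.8% in exosome replicate 1.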

How the results depend on the processing

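The exosome depth limits every comparison of the members between the groups, since a few reads decide each of their exosome values. With library size alone miR-152-3p turned to 0.018 and miR-148b-3p stood at −2.73 (edgeR adjusted p = 0.0722), while miR-148a-3p stayed called at −3.33 (adjusted p = 0.0425). Lower calls numbered 30 and the higher share of calls was 82.0%, against 44.6% with TMM and 57.6% with the upper quartile. Without a filter there were 202 lower calls among 1101 miRNAs, whose median log2 fold change was −1.67, and miR-152-3p stood at −2.58 (edgeR adjusted p = 0.0249). By the threshold of the study 4 members were lower there. Among them was miR-148b-5p, with 0 exosome counts where 1.20 were expected with TMM scaling. The share of all miRNAs past that threshold without a filter was not computed, so nothing is read from that count. With at least 10 counts in every library, 40 lower and 37 higher calls were made and no member was tested.

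Leaving out each library gave 0 to 168 lower and 0 to 124 higher calls. Without cell replicate 1 or 2, the quasi-likelihood test of edgeR made 0 calls, with 76 or 69 lower and 83 or 74 higher at an unadjusted p under 0.05, and exactTest adjusted over all miRNAs made 82 or 78 lower and 63 or 64 higher. miR-148a-3p ranged from −10.89 to −4.03 and miR-148b-3p from −10.29 to −3.44, and both lost their calls without either cell replicate (edgeR adjusted p = 0.0930 and 0.109, and 0.126 and 0.170). The lowest values come from exosome replicate 2 alone, which has 0 counts of either, and depend on the prior count. miR-152-3p ranged from −2.05 to −0.58 and passed without exosome replicate 2 (edgeR adjusted p = 0.0214). The cause was not tested.

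With the replicate block there were 109 lower and 117 higher calls, and the members were at −4.71, −4.06 and −1.29 with no call changed. The deviations of same-numbered libraries correlated at 0.19, and the libraries share only a number. With a pseudocount of 1 the 3p to 5p difference of miR-152 was −3.88. Leaving the most abundant miRNAs or let-7 out of the denominator gave family shares of 0.0648 and 0.0845% for the cells, and of 0.0197 and 0.0127% for the exosomes. The pooled ratios were added after seeing the data. With a library left out, those of miR-148a-3p and miR-148b-3p ranged from 0 (without exosome replicate 1) to 0.0587 and 0.0894 (without exosome replicate 2), with library size alone they were 0.0991 and 0.151, and that of miR-152-3p was 0.987 with library size alone.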
